A study of Drosophila melanogaster with 96 samples.

Results

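Female control heads were sampled over 2 days of constant darkness, with RNA sequencing libraries taken 2 h apart, the first at circadian time (CT) 24 and the last at CT70. Each gene was examined for a 24 h rhythm, its peak time and its size. The members are the 24 libraries that the labels place in the female control group, of 96 libraries in the series. No time point was replicated, so errors are spreads over libraries or standard errors (SE) of the fitted course. Flies of this group are labelled only as female controls: the control construct and the strain are not described in the labels. They were adults of 3 to 5 days, kept at 25 °C in cycles of 12 h light and 12 h darkness, and put into constant darkness from 24 h before the first collection. Each library came from 7 to 8 pooled heads. Male control flies, with the same age, handling and sampling, form the 24 libraries used for 1 comparison. The other libraries carried RNAi against Achl in females and males, and they entered only an alternative fit over the whole series.

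The fly clock is a feedback loop of transcription. The proteins CLOCK (from Clk) and CYCLE (from cyc) switch on per and tim around dusk, and the PERIOD and TIMELESS proteins later enter the nucleus and shut their own genes off. A linked loop runs through vri, whose protein represses Clk, and Pdp1, whose protein activates it. In the head, the clock runs in photoreceptors and glia as well as in the brain's pacemaker neurons, and fat tissue of the head also has clocks, so a whole-head course mixes many clocks. Bulk RNA cannot tell fewer cells of a type from less RNA per cell.

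Values are in TPM, the usual transcript level scaled to gene length and to the sum of each library. A gene is called rhythmic where limma's F test of a 24 h cosine and sine on log2(TPM + 1), with a term for the day, gave a Benjamini-Hochberg adjusted p below 0.05 over all 10376 tested genes. The size of a rhythm is the peak-to-trough ratio of the fitted wave on the log2(TPM + 1) scale, which understates the change of low genes. Peak times are given within a cycle, so CT0 is subjective dawn and CT12 subjective dusk.

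The libraries did not form an even set. The mitochondrial ribosomal RNA mt:lrRNA had 10800 to 25400 TPM on the second day (CT48 to CT70), and 73500 to 125000 TPM in 10 libraries of the first day (CT24 to CT46). The other libraries of the first day, CT32 with 29900 TPM and CT40 with 33900 TPM, stood near the level of the second day. The median log2 level of the tested genes was lowest at CT38, at 4.11, against day means of 4.51 on the second day and 4.34 on the first. Among the genes later called rhythmic, CT32 held the highest value of the first day for 55 and CT40 for 59, while CT38 held the lowest for 76. The diptericin gene DptA, an antibacterial peptide, reached 3335 TPM at CT56 and 814 TPM at CT24, with a median of 9.55 TPM over the group. The heads carried the markers of their tissue: 11 of 11 photoreceptor, 9 of 9 neuron, 6 of 6 glia, 6 of 6 fat body, 5 of 5 muscle and 4 of 4 hemocyte markers averaged at least 1 TPM. Ovary markers averaged at least 1 TPM in 0 of 5 cases and summed to at most 3.74 TPM in any library, and 4 of 5 gut markers were at 0 in every library.

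A 24 h rhythm was called for 279 of 10376 genes, which is 2.69%, and 268 of these are protein-coding. Rhythms were mostly modest. The median peak-to-trough ratio of the called genes was 1.46, between quartiles of 1.35 and 1.67, against 1.13 over all tested genes. A ratio of at least 2 was reached by 35 genes and of at least 3 by 8. The peak time of a called gene had a median SE of 0.761 h and at most 0.914 h. Waves of other periods were added to the same model. A 12 h wave, which would give a second daily peak, was called for 0 genes (0%), with 720 genes at an unadjusted p below 0.05 and a lowest adjusted p of 0.201. A 16 h wave was called for 0 genes (0%), with 491 at an unadjusted p below 0.05. Both counts were also 0 in limma without its trend and robust options. For the 24 h wave, 1530 genes had an unadjusted p below 0.05.

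**Figure D1:**
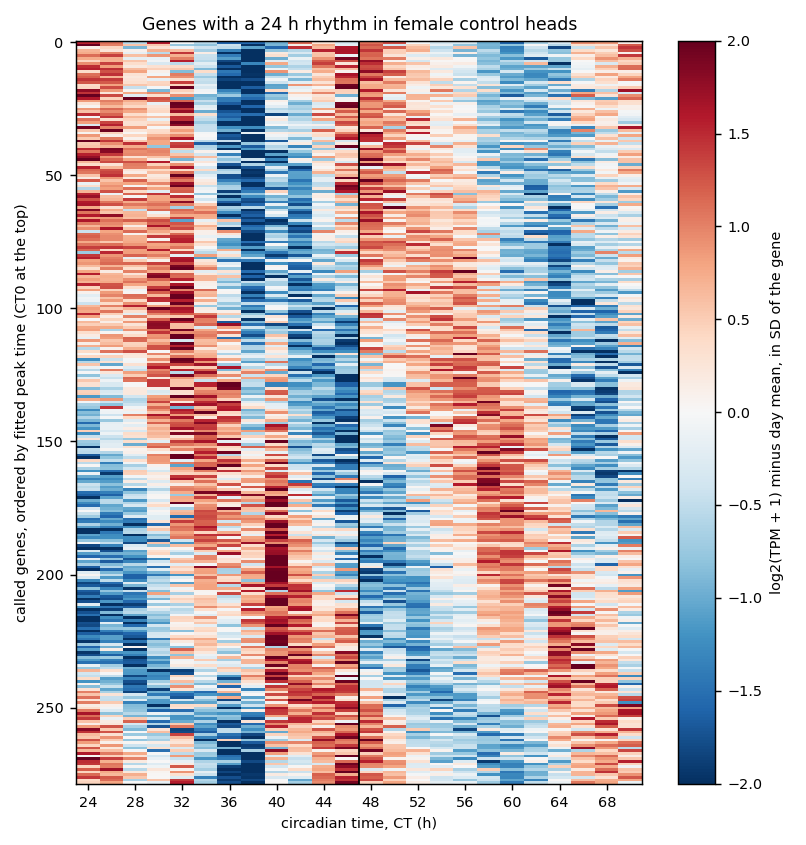
Each row is 1 of the 279 called genes and each column 1 library, ordered by CT in h; colour gives log2(TPM + 1) minus the mean of the gene on that day, in SD of the gene, and the black line divides the first from the second day. Rows run from a fitted peak at CT0 at the top to CT24 at the bottom, and the columns CT32 and CT40 are high, and CT38 low, across wide stretches of rows.

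Peak times were spread over the whole cycle but unevenly. The 4 h after subjective dawn (CT0 to CT4) held 82 of the called genes, or 29.4%. Smaller numbers peaked later in the subjective day, with 45 between CT4 and CT8 and 47 between CT8 and CT12. After dusk 55 genes peaked between CT12 and CT16, and only 21 between CT16 and CT20 and 29 between CT20 and CT24. The genes of CT12 to CT16 had a median ratio of 1.52 and those of CT8 to CT12 one of 1.39. These shares depended on how levels were scaled. With every library centred on its median gene, 489 genes were called, of which 166 (33.9%) peaked between CT12 and CT16 and 76 (15.5%) between CT0 and CT4. Without the CT32 and CT40 libraries, 724 genes were called, all 279 among them, and 239 peaked between CT0 and CT4 and 218 between CT20 and CT24.

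**Figure D2:**
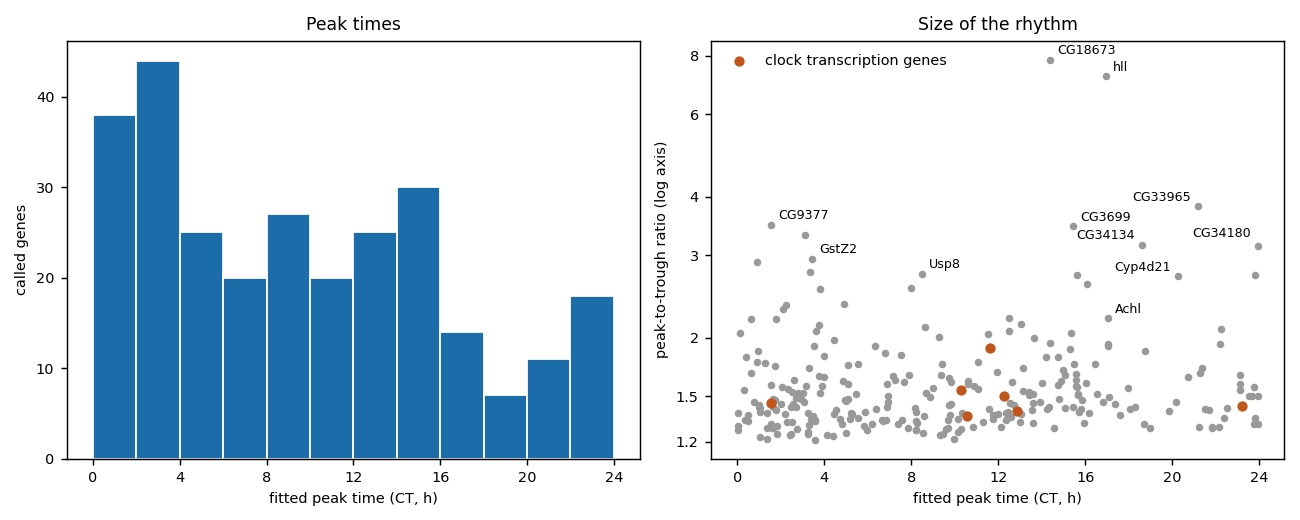
Left, the number of called genes in each 2 h step of fitted peak time in CT h; right, the peak-to-trough ratio of every called gene on a log axis against its peak time, 1 point per gene, with clock transcription genes in orange. The 2 h from CT2 to CT4 hold the most genes, 44, the 2 h from CT18 to CT20 the fewest, 7, and the clock genes lie at ratios from 1.37 to 1.91.

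The clock itself cycled in these heads. Of the 8 clock transcription genes, 7 were called, with a median ratio of 1.44 against 1.13 over all tested genes. The repressor vri (FBgn0016076, chromosome 2L, 5288944 to 5311223 on dm6) had the clearest course. It ran between 38.4 TPM at CT48 and 73.0 TPM at CT60 on the second day (median 57.2), and between 32.2 TPM at CT24 and 75.8 TPM at CT34 on the first (median 45.97). On both days the lowest library was at subjective dawn and the highest near dusk. The fitted ratio was 1.91 (log2 0.93, SE 0.07), with a peak at CT11.63 (SE 0.31 h) and an adjusted p of 9.4e-08. Pdp1, the activator of Clk in the same loop, ran from 121 TPM at CT50 to 209 TPM at CT60 on the second day and from 160.1 TPM at CT46 to 305 TPM at CT36 on the first. Its highest library was at subjective dusk on both days. Its ratio was 1.5 (log2 0.59, SE 0.08), its peak at CT12.28 (SE 0.53 h) and its adjusted p 0.00027. The peak of Pdp1 came 0.65 h after that of vri, with an SE of 0.608 h, so their order was within that error. SEs of gaps between peak times, here and below, treat the genes as independent although they share libraries.

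The repressor genes per and tim peaked apart. The gene per (chromosome X, 2685580 to 2692780) ran from 7.65 TPM at CT48 to 13.9 TPM at CT56 on the second day and from 3.70 TPM at CT24 to 11.1 TPM at CT32 on the first. It was lowest at subjective dawn on both days. Its ratio was 1.55 (log2 0.63, SE 0.11), its peak at CT10.26 (SE 0.67 h) and its adjusted p 0.0037. The gene tim (chromosome 2L, 3493986 to 3508119) ran from 232 TPM at CT48 to 351 TPM at CT60 on the second day and from 172 TPM at CT28 to 305 TPM at CT40 on the first. The highest library was at subjective dusk on the second day and 4 h after it on the first. That first-day library, CT40, was one of the 2 of low mt:lrRNA. It stood little above CT34 and CT36, which had 300.2 and 300.3 TPM, so the first-day time of the highest value is uncertain. Its ratio was 1.40 (log2 0.48, SE 0.09), its peak at CT12.86 (SE 0.71 h) and its adjusted p 0.0067. The fitted peak of tim came 2.6 h after that of per (SE 0.976 h). The transcriptional repressor cwo had its peak near that of per, at CT10.57 (SE 0.81 h), with a ratio of 1.37 (log2 0.45, SE 0.10) and an adjusted p of 0.020. Its adjusted p was 0.0538 without the CT58 library.

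Clk and the photoreceptor gene cry peaked on the other side of the day. Clk (chromosome 3L, 7763233 to 7775603) ran from 19.7 TPM at CT56 to 30.9 TPM at CT48 on the second day and from 17.3 TPM at CT38 to 37.8 TPM at CT24 on the first. The highest library was at subjective dawn on both days. Its ratio was 1.43 (log2 0.52, SE 0.10), its peak at CT23.19 (SE 0.73 h) and its adjusted p 0.0085. This peak came 11.6 h after that of vri (SE 0.794 h), close to the opposite phase. The gene cry, which encodes the blue-light photoreceptor of the clock, ran from 99.1 TPM at CT62 to 165 TPM at CT50 on the second day and from 58.4 TPM at CT36 to 137 TPM at CT46 on the first. The levels of the 2 days overlapped, with the higher ones on the second. Its ratio was 1.45 (log2 0.54, SE 0.12), its peak at CT1.53 (SE 0.84 h) and its adjusted p 0.027. Leaving out any 1 of the libraries CT36, CT38, CT50, CT60 and CT62 took its adjusted p above the threshold, to at most 0.0710. The gene cry overlaps vib on the other strand (120 TPM), and per overlaps CG2650. The sources used here do not say whether the authors counted by strand, so reads of such pairs may be shared. The 8th gene, cyc, had a ratio of 1.09 and an adjusted p of 0.608, with 23.6 to 31.3 TPM on the second day and 17.7 to 25.5 TPM on the first.

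**Figure D3:**
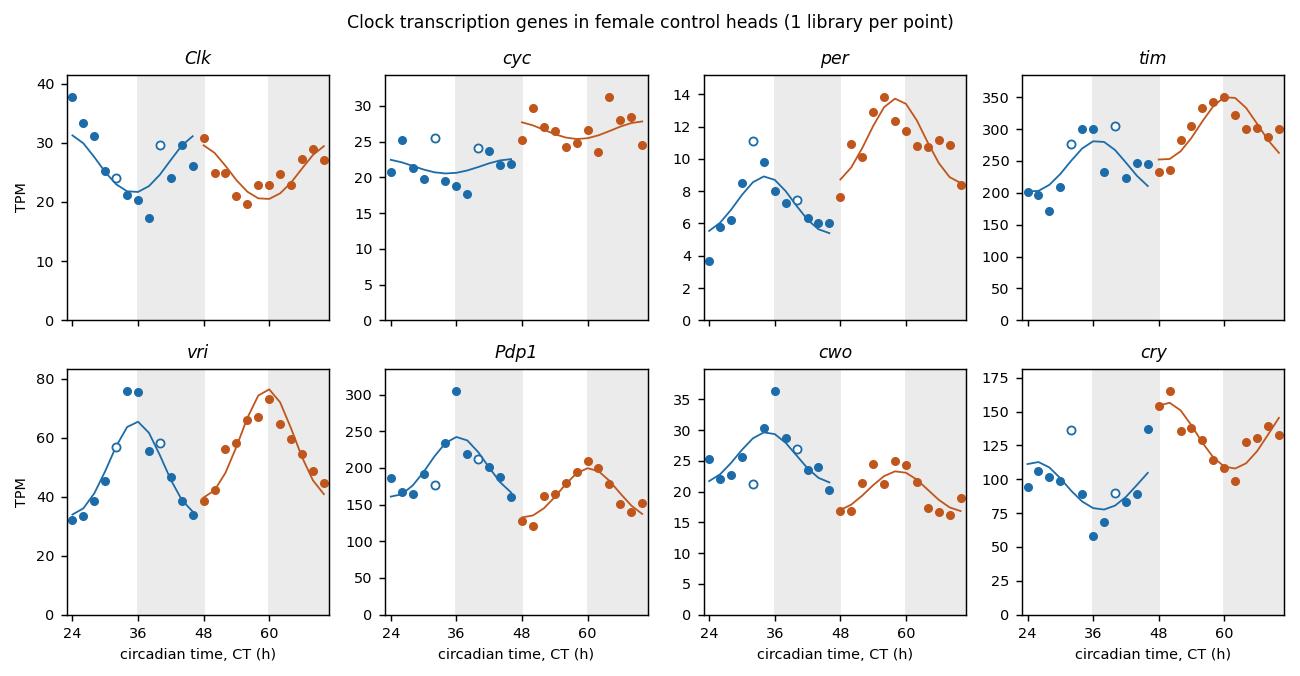
TPM of the 8 clock transcription genes against circadian time in h, 1 point per library, blue for the first and orange for the second day, with the fitted wave as a line, grey for subjective night and open points for CT32 and CT40. The courses of vri, Pdp1, per, tim and cwo are high near dusk, those of Clk and cry near dawn, and cyc shows a ratio of 1.09.

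The day term mattered for the clock genes, since levels differed between the days: per averaged 10.96 TPM on the second day and 7.19 TPM on the first, and cry 131 and 96.1 TPM in the same order. Without that term 3 of the 8 genes passed, and per (adjusted p 0.326), tim (0.167), cwo (0.284) and cry (0.396) did not. Over all tested genes 120 were called without it, against 279 with it. In a fit over all 96 libraries 5 of 8 passed, without cwo and cry. The 12 tested genes that act on the clock proteins were called in 0 cases, against 2.69% of all tested genes. Of these 12 genes, 1 had an unadjusted p below 0.05. They include the kinases dco (ratio 1.06), sgg (1.1) and CkIIalpha (1.16) and the F-box gene slmb (1.03). The 1 gene was jet, whose F-box protein marks TIMELESS for breakdown in light, with a ratio of 1.42 and an adjusted p of 0.0874, or 0.0138 without the CT32 library. Of 5 translation regulators of per, among them Atx2 and Not1, 0 were called and 0 had an unadjusted p below 0.05. At 2.69%, lists of 12 and 5 genes would hold less than 1 call each.

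Known outputs of the clock had more calls than any other list of genes here. A list of 17 genes known or seen earlier to cycle in fly heads had 13 called (76.5%, against 2.69% of all tested genes), with a median ratio of 1.38. It was drawn up with results of these data known, so this count is a description. The 4 members not called were trpl, loco, nocte and Rh5, and trpl had an adjusted p of 0.0817. Without the CT24 and CT56 libraries, those of highest DptA, 10 of the 17 were called, and without the day term 8. Over all tested genes these fits called 212 and 120. The output genes below are taken in order of peak time.

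Around subjective dawn the leading genes included CG34180, Cpr72Ec and takeout. CG34180 (chromosome 2L, 6060510 to 6060938) ran from 45.6 TPM at CT60 to 146 TPM at CT70 on the second day and from 23.8 TPM at CT38 to 119.5 TPM at CT46 on the first. The highest library came 2 h before subjective dawn on both days. Its ratio was 3.14 (log2 1.65, SE 0.15), with a peak at CT23.95 and an adjusted p of 6.4e-07. It overlaps ND-51, a complex I subunit at 300 TPM, on the other strand. Cpr72Ec, a cuticle protein of the corneal lens, ran from 439 TPM at CT62 to 1316 TPM at CT50 on the second day and from 175 TPM at CT38 to 848 TPM at CT46 on the first. Its peak was at CT0.91 with a ratio of 2.90 (log2 1.54, SE 0.17). The gene to (takeout), which encodes a secreted protein linked to feeding, averaged 424 ± 106 TPM (SD, n = 24), with a ratio of 1.87 and a peak at CT0.95. Pdh, a retinol dehydrogenase of the retinal pigment cells, was among the most abundant cycling transcripts at 3879 ± 792 TPM. It had a ratio of 1.68, a peak at CT0.61 and an adjusted p of 0.00015. CG11407, listed as Acsx3 in the gene name table, peaked at CT0.61 with a ratio of 2.19.

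In the early subjective day the leading gene was Ugt35b, a UDP-glycosyltransferase, which shared the lowest adjusted p of all genes, 9.4e-08, with vri. It ran from 199 TPM at CT64 to 461 TPM at CT48 on the second day and from 153 TPM at CT38 to 511 TPM at CT24 on the first. Both days had their highest library at subjective dawn. The ratio was 2.35 (log2 1.23, SE 0.10) and the peak at CT2.25 (SE 0.30 h). GstZ2, a zeta-class glutathione transferase, ran from 29.1 TPM at CT62 to 79.8 TPM at CT48 on the second day and from 13.6 TPM at CT38 to 59.6 TPM at CT32 on the first. The days overlapped over most of their range. Its ratio was 2.95 (log2 1.56, SE 0.15) and its peak at CT3.42. Jhe, the juvenile hormone esterase, was a low transcript at 3.08 ± 1.87 TPM, with a ratio of 3.31, a peak at CT3.13 and an adjusted p of 1.3e-05. CG11796, listed as Hpd, the 4-hydroxyphenylpyruvate dioxygenase of tyrosine breakdown, averaged 218 ± 67.6 TPM, with a ratio of 2.07 and a peak at CT3.60. Sod3, an extracellular superoxide dismutase, peaked at CT3.74 with a ratio of 1.66. CG14329 (ratio 2.77), CG42329 (2.13) and CG3713 (2.55) peaked at CT3.36, CT3.76 and CT3.82.

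In the later subjective day the group was led by gol, Usp8 and Slob. Usp8, a deubiquitinating enzyme, ran from 51.98 TPM at CT64 to 159 TPM at CT56 on the second day and from 42.4 TPM at CT46 to 158 TPM at CT32 on the first. The highest library was 8 h after subjective dawn on both days. Its ratio was 2.74 (log2 1.46, SE 0.16) and its peak at CT8.47 (SE 0.42 h). The gene gol, which encodes a RING-finger ubiquitin ligase, averaged 124 ± 39.0 TPM, with a ratio of 2.11, a peak at CT8.61 and an adjusted p of 4.1e-06. Slob, which binds and modulates the Slowpoke potassium channel, ran from 154 TPM at CT64 to 278 TPM at CT54 on the second day and from 128 TPM at CT24 to 269 TPM at CT32 on the first. It peaked at CT7.27 with a ratio of 1.62. Myo28B1 lies over Slob on the other strand and peaked at CT7.89 with a ratio of 1.67, so reads of this pair cannot be told apart without knowing the strand setting. Gp210, a nuclear pore protein, peaked at CT9.35 with a ratio of 1.67. At dusk CG11529 (4.34 TPM, ratio 2.21, CT12.47) and CG5535 (12.4 TPM, ratio 2.14, CT13.06) followed.

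At night the largest ratios of all appeared, in transcripts of low level. CG18673, listed as the carbonic anhydrase CAH5, ran from 3.19 TPM at CT52 to 46.6 TPM at CT60 on the second day and from 0.10 TPM at CT24 to 21.5 TPM at CT40 on the first. The days overlapped, and the lowest library was in subjective daytime on both. Its ratio was 7.84 (log2 2.97, SE 0.38) and its peak at CT14.37 (SE 0.48 h). The gene hll had a ratio of 7.23 (log2 2.85, SE 0.47) with a peak at CT16.93, and its level rested on few libraries: the highest was 70.2 TPM at CT66 and the median 2.73 TPM over the group. Achl, the gene targeted by RNAi in the other flies of the series, ran from 37.2 TPM at CT52 to 103 TPM at CT62 on the second day and from 29.4 TPM at CT30 to 105 TPM at CT40 on the first. Its ratio was 2.20 (log2 1.14, SE 0.17), its peak at CT17.02 (SE 0.56 h) and its adjusted p 0.00064. UK114 peaked at CT16.43 with a ratio of 1.76, and sn, which encodes the actin-bundling protein fascin, at CT18.26 with a ratio of 1.43. CG34134 (72.4 ± 36.3 TPM) peaked at CT18.61 with a ratio of 3.16. CG3699 (ratio 3.46, CT15.41, adjusted p 0.018) had an adjusted p of 0.0506 without the CT64 library.

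Before dawn, Cyp4d21 and CG33965 led. Cyp4d21, a cytochrome P450 also known as sxe1, ran from 13.1 TPM at CT56 to 47.4 TPM at CT70 on the second day and from 17.1 TPM at CT30 to 60.4 TPM at CT40 on the first. The highest library was in subjective night on both days. Its ratio was 2.71 (log2 1.44, SE 0.16) and its peak at CT20.27 (SE 0.43 h). Its level averaged 31.2 ± 14.6 TPM in female controls and 560 ± 171 TPM in male controls (SD, n = 24 each), while its male ratio was 2.18 with a peak at CT19.77. CG33965, at 3.72 ± 2.51 TPM, had a ratio of 3.82 (log2 1.93, SE 0.19) and a peak at CT21.16. CG10513 peaked at CT23.81 with a ratio of 2.72.

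**Figure D4:**
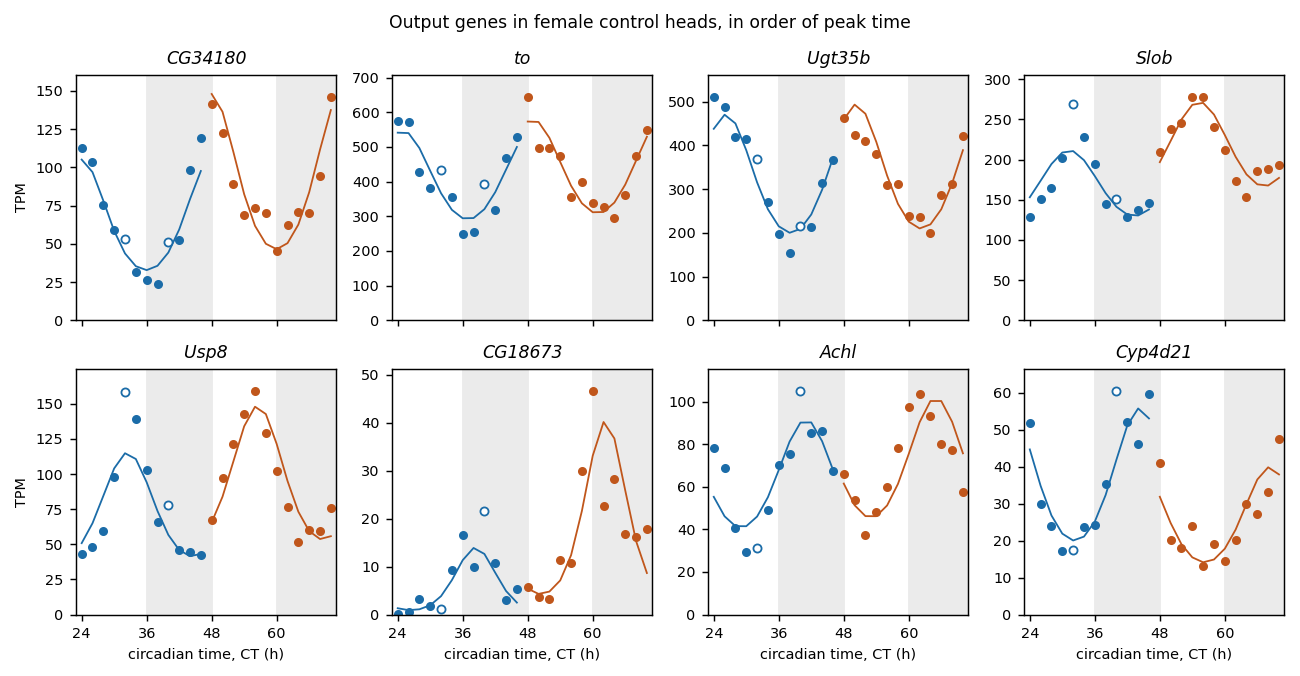
TPM of 8 output genes against circadian time in h, 1 point per library, with days, fitted waves, subjective night and the CT32 and CT40 libraries marked as in the plot of the clock genes. The peak moves from CT23.95 in CG34180 through CT2.25 in Ugt35b, CT8.47 in Usp8 and CT14.37 in CG18673 to CT20.27 in Cyp4d21.

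The eye supplied several small rhythms. Of 25 phototransduction genes 5 were called (20%, against 2.69%), with a median ratio of 1.16 over the 25. The diacylglycerol kinase gene rdgA had 144 ± 19.8 TPM, a ratio of 1.35, a peak at CT4.71 and an adjusted p of 0.00043. The lipid phosphatase gene laza peaked at CT1.00 with a ratio of 1.42 (adjusted p 0.016). The phospholipase C gene norpA peaked at CT5.95 with a ratio of 1.27 (adjusted p 0.028), the eye protein kinase C gene inaC at CT0.34 with 1.33 (0.034) and the arrestin gene Arr1 at CT22.16 with 1.29 (0.0498). Calls of norpA and inaC were lost when single libraries were left out, with adjusted p up to 0.0767 and 0.0782. Without the CT24 and CT56 libraries 3 of 25 were called, and without the day term 1, of 212 and 120 calls over all tested genes. The main rhodopsin gene ninaE had a ratio of 1.13 and an adjusted p of 0.507. Of 9 genes of visual chromophore supply, Pdh alone was called, and ninaB, the carotenoid-cleaving enzyme, had an adjusted p of 0.0598. With median centring 5 of the 9 were called, of 489 calls over all tested genes. The summed photoreceptor markers were 59200 to 71300 TPM on the second day and 38300 to 57900 TPM on the first, and their part in these rhythms was not tested.

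Among genes of detoxification, the called UDP-glycosyltransferases and glutathione transferases all peaked in the first hours of the subjective day. Of 10 UDP-glycosyltransferases 4 were called (40%, against 2.69% of all tested genes), all with a peak between CT1.26 and CT3.50: Ugt35b, Ugt86Da (ratio 1.35), Ugt86De (1.77) and Ugt35a (1.38). Ugt86De and Ugt35a each lost the call when any of 10 single libraries was left out, and without the day term Ugt35b alone of the 10 was called. Of 30 glutathione transferases 3 were called (10%, against 2.69%): GstZ2, GstE2 at CT4.53 with a ratio of 1.40, and GstD3 at CT5.29 with a ratio of 1.37. Of 76 cytochromes P450 8 were called (10.5%, against 2.69%), and their peaks ran round the cycle, for example Cyp6a21 at CT0.91 (ratio 1.78), Cyp4aa1 at CT3.28 (1.73), Cyp28d1 at CT14.33 (1.43) and Cyp4d21 at CT20.27. Without the CT32 and CT40 libraries 15 cytochromes P450 and 8 glutathione transferases were called, of 724 calls over all tested genes. Without the day term 4 cytochromes P450 were called, of 120 calls over all tested genes. Of 16 genes of glutathione synthesis and antioxidant defence 3 were called (18.8%, against 2.69%), but 0 without the day term and 1, Gclc, in the fit over all 96 libraries. Gclc and Gclm, the catalytic and modifier subunits of the enzyme that starts glutathione synthesis, peaked apart, Gclc at CT23.78 (ratio 1.35) and Gclm at CT5.16 (ratio 1.34), both with an adjusted p of 0.014. The thiol transferase gene se peaked at CT21.50 with a ratio of 1.41, and lost the call in 14 of the fits that left out 1 library.

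Cuticle protein genes were called in 6 of 28 cases (21.4%, against 2.69% of all tested genes): Cpr72Ec, Cpr49Ag (CT2.80, ratio 1.52), Cpr67B (CT0.30, 1.55), Cpr62Ba (CT3.98, 1.83), Cpr49Ae (CT8.15, 1.42) and Cpr76Bc (CT11.06, 1.78). Cpr62Ba and Cpr76Bc were low, at 1.3 and 4.24 TPM. Without the CT24 and CT56 libraries 3 of the 28 were called, without Cpr49Ae, Cpr67B and Cpr76Bc, and without the day term 2. Over all tested genes these settings called 212 and 120. Among 20 tested genes of juvenile hormone and ecdysone, 3 enzymes were called (15%, against 2.69%): Jhe, Cyp305a1 at CT5.08 (ratio 1.75, adjusted p 0.00038) and the ecdysteroid-inactivating Cyp18a1 at CT17.58 (ratio 1.37, adjusted p 0.028). Cyp18a1 lost the call in 5 of the fits that left out 1 library, without the day term (0.110), without the CT24 and CT56 libraries (0.0616) and with all 96 libraries (0.140).

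The lists of neuron, glia, fat body, metabolism and immune genes had 0 to 2 calls each. At the 2.69% of all tested genes, every list in this paragraph would hold less than 1 call. Of 17 neuron genes 1 was called (5.88%, against 2.69% of all tested genes), ple, the tyrosine hydroxylase of dopamine synthesis, at 34.4 ± 8.99 TPM with a ratio of 1.55 and a peak at CT2.32 (adjusted p 0.0019). Of 19 neuropeptides, receptors and channels of the clock neurons 0 were called and 2 had an unadjusted p below 0.05. The pacemaker peptide gene Pdf had a ratio of 1.16 and an adjusted p of 0.295. Of 15 sleep genes 0 were called and 3 had an unadjusted p below 0.05. Of 14 glia genes 2 were called (14.3%, against 2.69%), e (CT1.82, ratio 1.3) and CG6126. Each lost the call in 18 of the fits that left out 1 library. Of 14 fat body genes 0 were called, although their median ratio was 1.25, and the female fat body gene fit had a ratio of 2.04 with an adjusted p of 0.295. Its level ranged from 229 to 1098 TPM on the second day and from 442 to 3464 TPM on the first. The fatty acid synthesis gene ACC was the 1 called of 26 genes of lipid and sugar metabolism (CT13.93, ratio 1.46, adjusted p 0.024), and of 15 insulin and starvation genes Thor, the translation repressor 4E-BP, was called at CT4.80 (ratio 1.31, adjusted p 0.047). ACC lost the call in 5 of the fits that left out 1 library and Thor in 17. Of 20 immune effectors 2 were called (10%, against 2.69%): IM1 (CT14.02, ratio 1.60, adjusted p 0.0019) and IM4 (CT14.72, 1.82, 0.035). In the fit over all 96 libraries neither was called (adjusted p of IM1 0.454), and IM4 lost the call in 11 of the fits that left out 1 library.

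Calls among genes of the basic cell machinery are given against the 2.69% of all tested genes, at which the shorter lists would hold less than 1 call. They numbered 0 of 86 cytosolic ribosomal proteins, 0 of 73 mitochondrial ribosomal proteins, 0 of 31 proteasome subunits, 0 of 20 V-ATPase subunits, 0 of 14 heat shock genes and 0 of 20 mitochondrially encoded genes, of which 2, 7, 0, 4, 4 and 7 had an unadjusted p below 0.05. Without the CT32 and CT40 libraries 724 of all 10376 tested genes were called, against 279 with them. These 6 lists then had 2, 3, 1, 1, 3 and 3 calls. Of 66 nuclear genes of oxidative phosphorylation 1 was called, COX6AL, at 0.895 TPM, and 8 without the CT32 and CT40 libraries. COX6AL lost the call in 13 of the fits that left out 1 library. It overlaps the called gene Cyp4aa1 (18 TPM) on the same strand, so reads of this pair may be shared. Of 32 tRNA synthetases 1 was called, LeuRS, at CT13.58 with a ratio of 1.52.

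Each day fitted alone gave a repeat in libraries that had not chosen the genes. On the second day 79 genes were called (0.761%), and 68 of them (86.1%) peaked on the first day within 4 h of the same time. Over all tested genes 53.0% did so. Their median ratio was 1.64 on the first day, against 1.18 over all tested genes. On the first day 29 genes were called (0.279%), and 26 of these (89.7%) peaked within 4 h on the second day, with a median ratio of 1.99 there against 1.14 over all genes. Called on both days were 18 genes. For vri the ratio was 1.67 on the second day and 2.19 on the first, and for Ugt35b 1.99 and 2.77 in the same order. A difference of the rhythm between the days passed the test for 0 genes (0%), in limma with and without its trend and robust options, with 345 genes at an unadjusted p below 0.05. The lowest adjusted p, 0.114, belonged to Sec61alpha, the channel of protein entry into the endoplasmic reticulum, with a ratio of 1.12 on the second day and 1.54 on the first. Its highest value of the first day, 195 TPM, was at CT40.

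Mean levels differed between the days for many genes. From the first to the second day 4993 genes (48.1%) were higher and 1308 (12.6%) lower by limma, and the median tested gene moved by 0.16 on the log2 scale. With every library centred on its median gene the counts were 2820 and 2909, and with mitochondrially encoded genes left out of the scaling 2671 and 2665. Mitochondrially encoded genes were among those of lowest p, and mt:CoIII, a cytochrome oxidase subunit, averaged 5465 TPM on the second day and 18130 TPM on the first. Pu, the first enzyme of pteridine synthesis, averaged 73.8 and 122.0 TPM, and the ncRNA CR44133 31.6 and 15.9 TPM, each with the second day first. No later day was sampled, so a trend with time in darkness and a difference between these 2 sets of libraries cannot be told apart.

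The same genes were then read in male control heads, whose libraries played no part in choosing them. Of the 279 genes 274 had a male fit, and 236 of these (86.1%) peaked in males within 4 h of the female time. Of the 10152 tested genes listed with a male fit, 53.9% did so. The filter was passed in both sexes by 10150 genes. Male calls covered 121 of the 274 genes (44.2%). Among all genes listed with a male fit 248 were called in males, and the 121 are 48.8% of these. In all, 252 of the 10408 genes tested in males were called there. The median ratio of the 274 genes was 1.46 in females and 1.29 in males, where all tested genes had 1.1. The females' size is the one that chose them. The median peak was 0.245 h later in females than in males, and 15 genes were over 8 h apart. That shift was not tested, and the median SE of a single called peak was 0.761 h in females. Of the 7 clock genes below, all but Clk peaked earlier in females. In males the fitted peaks of the 7 clock genes were at CT10.39 for per, CT11.34 for cwo, CT12.05 for vri, CT12.74 for Pdp1, CT14.85 for tim, CT22.33 for Clk and CT2.62 for cry, and cwo (adjusted p 0.120) and cry (0.0694) were not called there. Female and male ratios were 1.91 and 2.50 for vri, 1.55 and 1.92 for per and 1.40 and 1.79 for tim, and the adjusted p of the difference in rhythm was 0.882, 0.999 and 0.468.

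**Figure D5:**
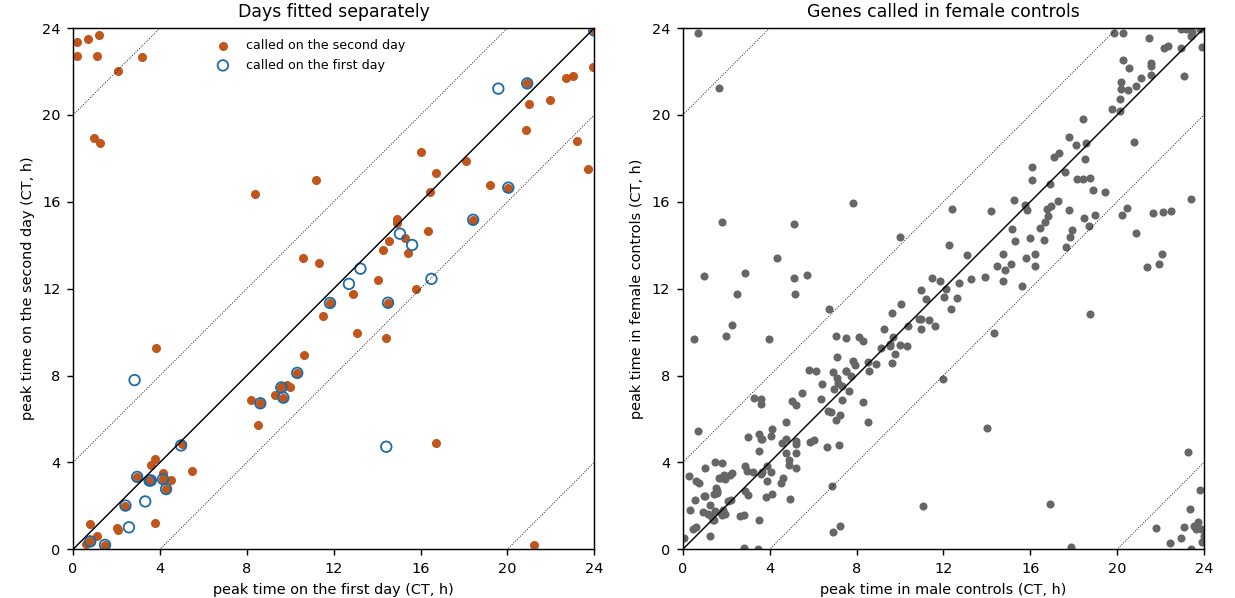
Left, peak time on the second day against peak time on the first day in CT h, for genes called on the second day (orange) and on the first (blue circles); right, peak time in female controls against male controls for genes called in females, 1 point per gene. Solid lines mark equal times and dotted lines a gap of 4 h, within which lie 68 of 79 and 26 of 29 genes on the left and 236 of 274 on the right.

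The rhythm differed between female and male controls by limma's F test for 6 of 10150 genes (0.0591%), with 610 at an unadjusted p below 0.05. Fmo-2, a flavin-containing monooxygenase, had a ratio of 1.27 with a peak at CT10.86 in females and 1.52 with a peak at CT1.20 in males (adjusted p of the difference 0.0047). The gene rost peaked at CT9.82 with a ratio of 1.44 in females and at CT2.01 with 1.72 in males (0.0439), and its level was 217 ± 35.8 TPM in females and 23.1 ± 8.54 TPM in males (SD, n = 24 each). CG6084, listed as the aldo-keto reductase Akr1B, cycled in females with a ratio of 1.71 and a peak at CT14.96, while its male ratio was 1.11 (0.0466). CG31673 had a ratio of 1.46 in females and 1.05 in males, Rgk2 1.22 and 1.25 with peaks at CT0.61 and CT15.78, and mdy, which makes triglyceride, 1.31 and 1.21 with peaks at CT11.78 and CT2.25 (0.0466 each). CG6084, CG31673 and mdy had their highest value of the first day at CT40. Without the CT32 and CT40 libraries of female controls, Fmo-2 alone of the 6 passed, with an adjusted p of 0.0121, and the other 5 had 0.0716.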

How the data were processed

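RNA from female and male heads was prepared with a stranded mRNA kit, per the labels' protocols. Per the submitters' processing notes, the tools were STAR and RSEM and the genome build dm6. No version of either tool was stated. The authors' deposited table gives TPM for 17698 genes, with library sums within 0.79 of 1000000, so depth is unknown and no counting interval is given. Positions come from the Ensembl annotation of BDGP6 (the same assembly as dm6), which matched 17560 genes.

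A gene was kept where 8 or more of the 24 female control libraries had 1 TPM or more (10376 genes). log2(TPM + 1) was fitted with limma 3.58.1 (trend and robust, R 4.3.3) as a mean, a day term and a 24 h cosine and sine, with 20 residual degrees of freedom. F tests were adjusted by Benjamini-Hochberg over all tested genes, and errors of ratio and peak come from the delta method. The sex comparison fitted 48 libraries with a day term within each sex. With 1 library per time, a p-value reflects how far single libraries scatter about the fitted wave, and that scatter may be technical. Library correlations lay between 0.9699 and 0.9934, 0 pairs were identical, and the median correlation of successive residuals was -0.129. The fit was tested on simulated data.

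Members and gene lists were chosen with earlier results of these data known. Genes named are the clock lists, the 20 others of lowest p, the 10 of largest ratio at 5 TPM or more, 4 per 4 h class of peak, up to 4 per list and 6 per other test; others named in the lists or closing part were chosen after their values were seen. Figures used Python 3.11.15 and matplotlib 3.10.9.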

Additional observations from a re-analysis of the deposited data

Results flagged for a closer look

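The rhythm of 6 genes differed between female and male controls by the test of the difference itself, which is what marks them here. The adjusted p was 0.004715 for Fmo-2, 0.04394 for rost and 0.04663 for CG31673, Rgk2, CG6084 and mdy. Only CG31673, CG6084 and rost were also called rhythmic in female controls, and Fmo-2, rost, Rgk2 and mdy in male controls. With same-CT pairs of libraries in place of separate courses, the adjusted p was 0.0475 for Fmo-2, 0.0111 for CG6084 and 0.0475 for CG31673, and it was above the threshold for rost (0.105), mdy (0.105) and Rgk2 (0.0909). In females the highest value of CG6084 was 477 TPM at CT40, one of the libraries of low mt:lrRNA on the first day, and that of CG31673 was 89.3 TPM at the same time.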

How the results depend on the processing

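Against 279 as reported, 489 were called with median centring, 120 without a day term, 558 with log2 mt:lrRNA and 946 with a straight line in place of day, 29 on the first day alone and 79 on the second. Further alternatives were chosen after seeing the data: 724 were called without the CT32 and CT40 libraries, 212 without CT24 and CT56, and 835 with the mt:lrRNA class in place of day. Leaving out each library in turn gave 204 to 493, the highest without CT32. Other settings gave 216 to 312, among them 277 with a pseudocount of 0.1, 216 with no filter, 268 at 5 TPM in 12 libraries, 312 rescaled without mitochondrially encoded genes, 265 with all 96 libraries, 263 on ranks, and 292 and 243 at periods of 23 h and 25 h. With median centring the 12 h wave was called for 1 gene and the day difference for 2. The sex difference, 6 genes as reported, was 2 with no filter, 46 with median centring, 10 with same-CT pairs and 1 without CT32 and CT40. Median centring turned the split of day levels to 2820 higher and 2909 lower, against 4993 and 1308 as reported, and made CT12 to CT16 the fullest class of peak times. For the genes named, called or not, leaving out 1 library left the status unchanged in 4558 fits. A call was lost in 188 and gained in 30. Other settings left the status unchanged in 3213 fits, with a call lost in 205 and gained in 142. The unchanged fits include those of genes that were not called in either fit. The median shift of peak time in called genes was 0.267 h with median centring and 1.60 h at a period of 23 h. Depth is unknown, and 1 library per time limits all errors. The paired fit of same-CT libraries shared 3 of its 10 genes with the 6 reported.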

Other observations

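The genes described here were chosen after their values were seen, so the counts are descriptions. Of 7 enzymes of tyrosine metabolism looked at, 4 were called, against 2.69% of all tested genes. Besides CG11796 (Hpd) at CT3.60 and GstZ2 at CT3.42, CG1461 peaked at CT5.53 with a ratio of 1.35 (adjusted p 0.022) and hgo, the homogentisate dioxygenase, at CT5.00 with a ratio of 1.47 (0.015). CG1461 ran from 125 to 189 TPM on the second day and from 98.7 to 173 TPM on the first. It overlaps CG46317 (100 TPM) on the same strand, so reads of this pair may be shared. Hn, which makes tyrosine from phenylalanine, had a ratio of 1.12 (0.561), GstZ1 1.16 (0.569) and Faa, the last enzyme, 1.1 (0.548). Their fitted peaks were at CT15.60, CT13.00 and CT7.60. In male controls the peak was at CT2.96 for CG11796, CT2.18 for GstZ2, CT4.13 for CG1461 and CT5.20 for hgo. CG1461 (male adjusted p 0.285) and hgo (0.177) were not called there.

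The 3 genes of beta-alanine and amine conjugation looked at were called, with peaks between CT18.96 and CT1.82. The share over all tested genes was 2.69%. Of the amine synthesis genes looked at with them, ple was called, as given above, and Ddc was not (adjusted p 0.506). The aspartate decarboxylase gene b (black), which makes beta-alanine, peaked at CT21.34 with a ratio of 1.72 and an adjusted p of 0.0025. Its partner e (ebony), which joins beta-alanine to amines, peaked at CT1.82 (0.042), and t (tan), which splits the conjugate, at CT18.96 with a ratio of 1.29 (0.044). The calls of e and t were near the threshold, and e lost its call in 18 of the fits that left out 1 library. Fitted by day, t peaked at CT15.92 on the second day and CT20.67 on the first. The F test of that day difference gave an unadjusted p of 0.0027 and an adjusted p of 0.648. The level of b (black) averaged 82.2 TPM on the second day and 58.9 TPM on the first. Among eye pigment genes the transporter genes st (CT5.07, ratio 1.48) and bw (CT18.06, ratio 1.41) were called, while their partner w had a ratio of 1.08 (0.802). Of the others looked at, se was called, and Pu (adjusted p 0.234) and v (0.681) were not.

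Of 10 enzymes of sugar handling looked at, 6 were called, and 5 of these were picked out below for their like peak times. The share over all tested genes was 2.69%, and the list of 26 genes of lipid and sugar metabolism above had 1 call. UGP, which makes UDP-glucose, peaked at CT15.08 (ratio 1.42, adjusted p 0.00064), the glycolytic Pgi at CT15.70 (1.39, 0.010), the transaldolase gene Taldo at CT15.48 (1.76, 0.0065), the galactokinase gene Galk at CT15.68 (1.51, 0.0085) and the sorbitol dehydrogenase gene Sodh-1 at CT15.60 (2.72, 0.00074). Each of these 5 was highest at CT64 on the second day, and on the first day 4 were highest at CT40 and UGP at CT42. Sodh-1 ran from 59.0 to 209 TPM on the second day and from 26.1 to 117 TPM on the first. The remaining call, Gfat1, an enzyme of hexosamine synthesis, peaked at CT20.16 with a ratio of 1.46 (0.0074). Gfat2 (CT20.95) and Sodh-2 (CT22.08) had adjusted p of 0.794 and 0.613. Zw and Pgd, of the pentose phosphate pathway, had adjusted p of 0.158 and 0.468. Male ratios were 1.04 for UGP, 1.08 for Pgi, 1.06 for Taldo, 1.22 for Galk and 1.35 for Sodh-1, and the adjusted p of the sex difference in rhythm was 0.0750, 0.477, 0.230, 0.999 and 0.278 in the same order. CT40 was also a library of low mt:lrRNA, and the part of that in these peaks was not tested.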
